A study of Rattus norvegicus with 5 samples.

Results

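Immediate early genes and transcription regulators of the bZIP class, which bind DNA through a basic region joined to a leucine zipper, were examined in myeloid-derived suppressor cells (MDSCs), immature myeloid cells that can restrain T cells, sorted from rat blood. The members were the genes whose symbol in the platform annotation begins with Fos, Jun, Egr, Atf, Klf, Nr4a, Ier, Btg, Gadd45, Creb, Crem, Cebp or Maf (with the number ranges of these families), and 41 genes with 1 probe each were found among 5990 genes named on the array. The symbols did not use any measured value. The pattern also takes in proteins that are not bZIP factors: the Egr and Klf zinc fingers, the Nr4a nuclear receptors, the signalling regulators of the Ier, Btg and Gadd45 families, and Crebbp, a coactivator that binds CREB.

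The 3 tolerant samples came from LEW.1A (haplotype RT1a) rats that carried a LEW.1W (haplotype RT1u) kidney, mismatched at MHC classes I and II, and had been treated with the anti-CD28 antibody JJ319. The 2 syngeneic samples came from LEW.1A rats that carried a LEW.1A kidney. Donor kidneys came from rats 8 to 12 weeks old; both own kidneys were removed 7 days after transplantation per the labels, which state this for the allografts; and blood was taken at day 100 in both groups. The submitters describe 3 recipients per group, and 2 syngeneic samples were analysed here. The sort was alike in both groups: after red cell lysis, magnetic beads took out MHC class II and CD3 positive cells, and CD80 or CD86 positive cells were kept, so the samples are a sorted mixture and not a single cell type. No label says which animal gave which array, so a p-value here reflects just the variation among these samples, and that variation may be technical.

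Immediate early genes are switched on within minutes of a stimulus, without new protein synthesis, by factors that already sit in the cell. Kinases of the MAP kinase cascades act on the serum response factor and its partners at CArG boxes, and cAMP and calcium act on CREB at cAMP response elements (CREs). The products, such as the AP-1 dimers of Fos and Jun proteins, then drive a second set of genes. In myeloid cells the C/EBP, Klf, Maf and Nr4a families are also known as lineage factors that stay expressed at rest.

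Signals were read on a 1-colour oligonucleotide array and are given here as quantile-normalised log2 signal. Tolerant arrays 1, 2 and 3 had median raw signals of 563, 600.0 and 757, against 798 and 676 for syngeneic arrays 1 and 2. The files hold no detection call, so a background level was taken on each array from 482 probes for olfactory receptors, as their 95th percentile, which lay between 10.76 and 11.17, and 22.8% to 26.6% of all probes exceeded it. The array syngeneic 2 stood apart: over all probes its correlations were 0.84 to 0.86, while those among the remaining arrays were 0.89 to 0.92. Values without it are given beside many of the results below, and for all tested members on the plot of differences. Of the monocyte and macrophage markers 7 of 11 tested were above background on all arrays, and the adhesion receptor Itgam (CD11b) was at background on syngeneic 2 alone. Of MHC class II genes, a target of the depletion, 6 of 8 were above background on all arrays. The number of arrays limits the precision of every value.

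Of the 41 members 15 were above background on all 5 arrays and 16 on some of them. The other 10 (Atf2, Atf3, Btg3, Creb3l2, Egr2, Egr3, Fosl1, Klf5, Mafk and Nr4a2) were at background on every array. A test was run where a probe's mean log2 signal reached the median probe mean (9.40), which 34 members did; Atf2, Btg3, Egr2, Egr3, Fosl1, Klf5 and Mafk did not. On the plot of signal by gene, the red points of the tolerant arrays and the blue points of the syngeneic arrays interleave for most genes. The widest vertical scatter belongs to Jun, Junb, Nr4a1, Ier3, Cebpa, Klf6 and Egr1; for Ier3 it lies between the groups.

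**Figure D1:**
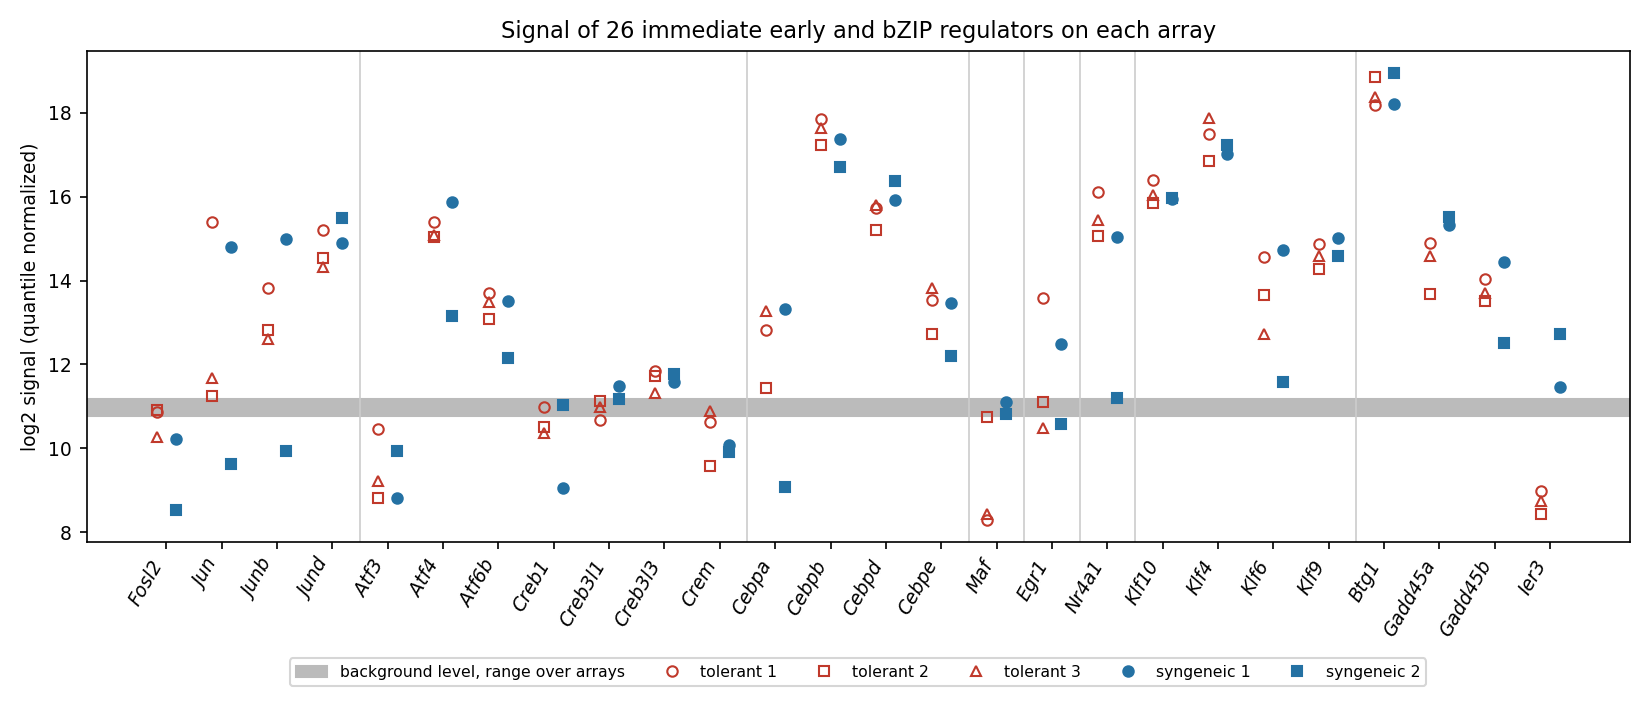
Log2 signal of 26 members on each array, grouped by family along the horizontal axis, with open red symbols for tolerant and filled blue symbols for syngeneic arrays and a grey band for the range of the background level (10.76 to 11.17). Jun spans 9.64 to 15.41 while Klf10 spans 15.85 to 16.40, and for Ier3 the 3 tolerant points lie at 8.43 to 8.97 below both syngeneic points.

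The comparison set recipients of a tolerated allograft against recipients of an isograft, and the effects of the allograft and of the antibody cannot be told apart. No immediate early or bZIP gene passed the threshold: 0 of 34 tested had an adjusted p under 0.05 with limma, where 6 of 13428 probes did (0.0447%), all of them lower in tolerant cells. At an unadjusted p under 0.05 there was 1 member of 34, Ier3, against 5.37% of all probes (3.38% lower and 1.99% higher in tolerant cells). The groups did not overlap for 8 members, 6 lower and 2 higher in tolerant cells, against 10.4% of probes lower and 9.74% higher (20.2% in all), so the members' share of 23.5% was near that of the array. The 6 were Cebpd, Creb3l1, Gadd45a, Ier3, Klf15 and Maf, and the 2 were Fosl2 and Nr4a1. Tolerant means of Ier3 (8.71), Klf15 (8.97) and Maf (9.15), and the syngeneic mean of Fosl2 (9.37), were under the signal filter (9.40). These genes were tested only through the other group, which favours a lack of overlap.

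Each difference is a tolerant mean less a syngeneic mean, in log2 units. Among the members 22 had a positive and 12 a negative difference, where 50.3% of all probes were positive. Their median was 0.23, against 0.0038 over all probes, and 0 when members at background were set to the bound that the background allows. This balance moved with single arrays. Without syngeneic 2, 14 of 34 were positive and the median was -0.10; without tolerant 1 the count was 17 and the median 0.013. Without tolerant 2 the count was 23 and the median 0.50, and without syngeneic 1 they were 19 and 0.16. Without normalization between arrays the median was -0.18, where that of all probes was -0.37.

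**Figure D2:**
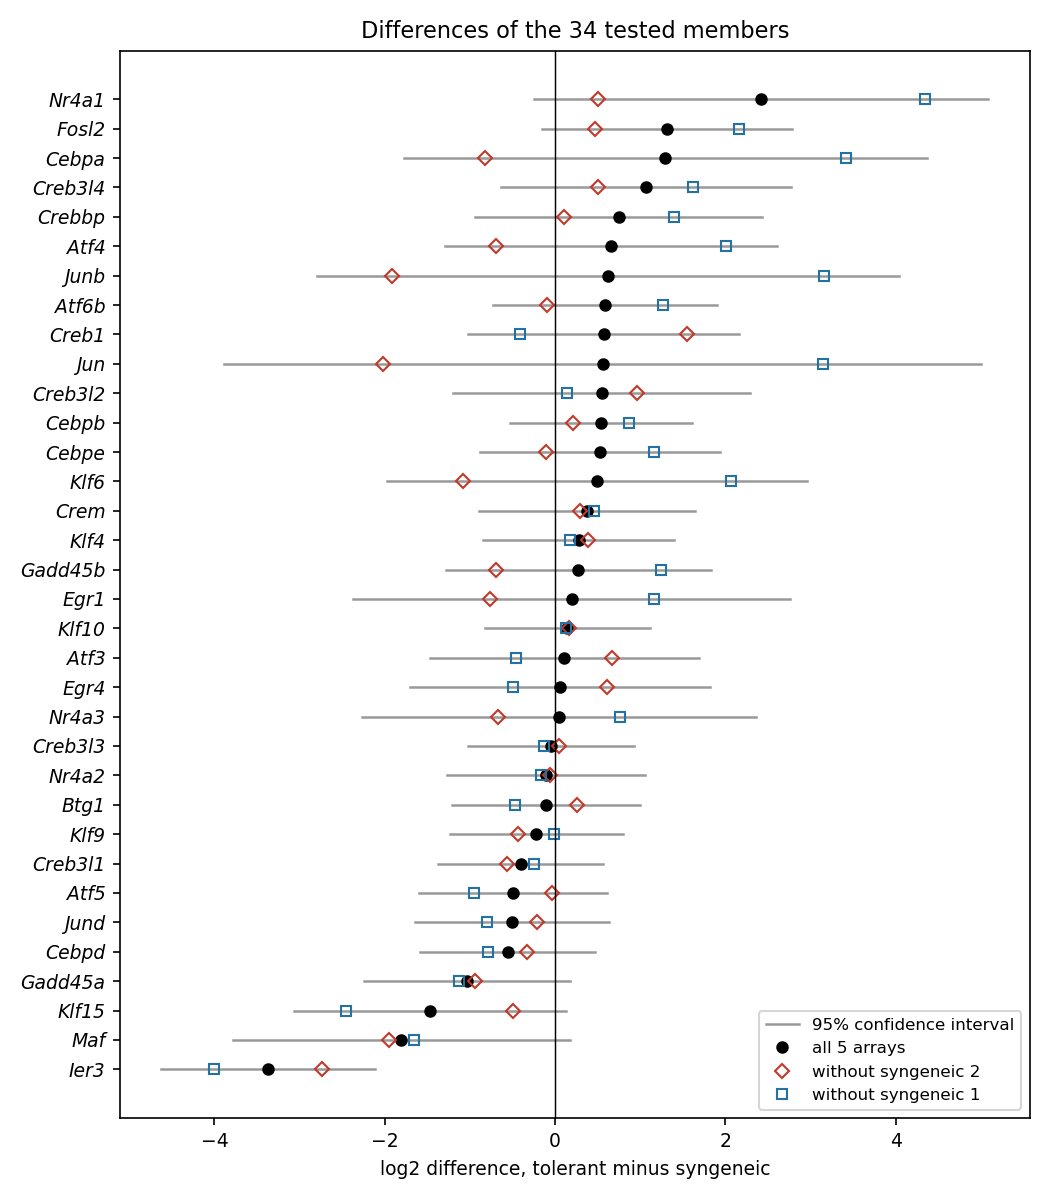
Log2 difference, tolerant minus syngeneic, of the 34 tested members, sorted by size, with the 95% confidence interval of the limma fit (line), the fit to all 5 arrays (black point), and the value without syngeneic 2 (red diamond) or without syngeneic 1 (blue square). The interval of Ier3, from -4.62 to -2.12, is the one that leaves out 0, while for Jun, Junb, Cebpa, Atf4, Klf6, Gadd45b and Egr1, among others, the diamond and the square lie on opposite sides of 0.

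Of the 5 genes of the Ier, Btg and Gadd45 families, which regulate survival and cell cycle arrest under stress, Ier3 had the largest difference. Ier3 (IEX-1) is an early target of NF-kB that modulates apoptosis. Its log2 signal was 8.97, 8.43 and 8.74 on the tolerant arrays, all at background, against 11.45 and 12.71 on the syngeneic arrays, both above it. The groups did not overlap, and the gap between the nearest arrays was wider than the spread within either group. The tolerant mean of 8.71 was below the signal filter (9.40), so Ier3 was tested only through its syngeneic values. The fitted difference was -3.37 (SE 0.52, adjusted p = 0.257), which measures no more than a bound: in tolerant cells Ier3 was at least 2.26-fold lower. Leaving out syngeneic 2 gave a bound of 1.46-fold, and leaving out syngeneic 1 one of 3.50-fold. The adjusted p of Ier3 was 0.040 under median scaling and 0.0096 without normalization between arrays, so its call depends on the scaling.

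Several marker lists of other blood cells were lower on every tolerant array than on both syngeneic arrays, as Ier3 was. The lists hold only genes that passed the signal filter (9.40). Below it, and not tested, were 1 neutrophil, 2 NK cell, 1 T cell, 2 erythroid and 2 platelet genes. A gene that passed only through its syngeneic values, like Ier3, was likely to be lower in tolerant cells, so the counts are descriptions. All 7 tested neutrophil markers were lower in tolerant cells, with mean log2 signals of 10.13 to 11.58 on the tolerant arrays against 13.59 and 14.45 on syngeneic 1 and 2; syngeneic 2 was the higher, as for Ier3. Erythroid markers (3 of 4 lower) had means of 8.73 to 9.31 on tolerant arrays, against 11.98 and 15.49 on syngeneic 1 and 2. Platelet markers (1 of 2 lower) had means of 8.86 to 9.21 on tolerant arrays, against 9.69 and 10.90, so both lists had the same syngeneic order. All 10 tested NK cell markers were lower as well, at means of 9.39 to 9.59 on tolerant arrays against 12.96 and 12.51 on syngeneic 1 and 2. Of these, Klrd1, Klre1, Gzma, Gzmb, Prf1 and Il2rb had tolerant means under the filter. Of 12 tested T cell markers 10 were lower, at 10.15 to 10.42 on tolerant arrays against 12.68 and 12.24. Tolerant means were also under the filter for the T cell markers Cd5, Lat, Zap70 and Cd28. The same held for the neutrophil markers Il1r2, Mmp8 and Mmp9, the erythroid markers Hbb, Hbb-b1 and Gata1, and the platelet marker Nrgn. Of the 3 genes with the smallest p in each of the neutrophil, NK and T cell lists, Klrd1, Klre1, Nkg7, Cd5, Lat and Il1r2 were at background on all 3 tolerant arrays, and Cd3d, Pglyrp1 and S100a8 were not. In the erythroid list Hbb was at 8.29 on all 3 tolerant arrays, against 14.49 and 20.30 on syngeneic 1 and 2. Hbb-b1 and the platelet marker Nrgn were also at background on all 3 tolerant arrays, and Gata1 and the platelet marker Gp5 were so in both groups. Both B cell markers had positive differences, with means of 12.33 to 15.06 on tolerant arrays, against 10.73 and 11.15 on syngeneic 1 and 2. The B cell marker Fcer2 passed the filter only through its tolerant values. All 8 tested MHC class II genes also had positive differences (7 of 8 without syngeneic 2). Their means were 14.95 to 16.43 on tolerant arrays, against 15.00 and 13.75 on syngeneic 1 and 2. Monocyte and macrophage markers had means of 13.39 to 14.13 on tolerant arrays against 13.93 and 13.23 on syngeneic 1 and 2. Fewer cells of a type and less RNA per cell cannot be told apart in such samples, and the part of these cells in the Ier3 signal was not tested.

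**Figure D3:**
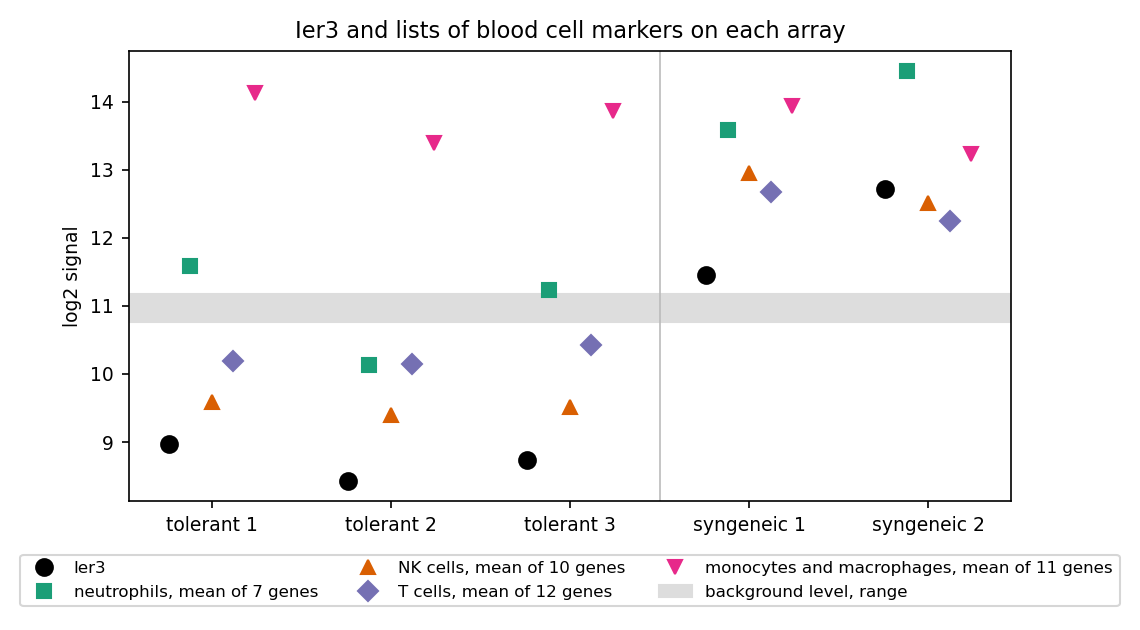
Log2 signal of Ier3 (black circles) and the mean log2 signal of the tested neutrophil, NK cell, T cell and monocyte and macrophage markers on each array, with the range of the background level in grey. Ier3, the neutrophil, NK and T cell means are each lower on all 3 tolerant arrays than on both syngeneic arrays, and the monocyte and macrophage means of the 2 groups overlap.

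The other members of these families were Gadd45a and Gadd45b, stress proteins that activate the p38 and JNK kinase pathways, and Btg1, an antiproliferative gene. Gadd45a was at 14.90, 13.68 and 14.58 on the tolerant arrays, against 15.33 and 15.52 on the syngeneic arrays. Every tolerant value was below both syngeneic values, but the difference of -1.04 (SE 0.50, adjusted p = 0.907) did not pass, and it was -0.94 without syngeneic 2. Gadd45b was at 14.04, 13.51 and 13.70 on tolerant arrays, inside the range of the syngeneic values of 14.45 and 12.51. Its difference was 0.27 and -0.70 without syngeneic 2. Btg1 varied little, at 18.18, 18.85 and 18.38 in tolerant cells, against 18.21 and 18.94 in syngeneic cells. Its difference was -0.11 (95% confidence interval -1.21 to 0.99), 0.25 without syngeneic 2 and 0.035 without tolerant 1. Btg3 was at background.

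Among the AP-1 genes, Jun and Junb varied more between arrays of 1 group than between groups. Jun, the transactivating partner of Fos proteins, was at 15.41, 11.25 and 11.68 on the tolerant arrays, against 14.80 and 9.64 on the syngeneic arrays. It was high on 1 array of each group, tolerant 1 and syngeneic 1, and at background on syngeneic 2. Its difference was 0.56 with an SE of 1.83 (adjusted p = 0.975), -2.02 without syngeneic 2 and -0.76 without tolerant 1. Junb, which restrains Jun in many settings, was at 13.82, 12.83 and 12.61 on the tolerant arrays, against 15.00 and 9.93 on the syngeneic arrays, with the same 2 arrays on top. Its difference was 0.62 (SE 1.41, adjusted p = 0.963) and -1.91 without syngeneic 2. The third Jun family gene, Jund, which is known for steady expression, did not share this scatter: it was at 15.21, 14.53 and 14.32 in tolerant cells, against 14.90 and 15.49 in syngeneic cells, a difference of -0.51 (SE 0.47; -0.22 without syngeneic 2).

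Of the Fos family, Fosl2 (Fra-2) was at 10.86, 10.91 and 10.27 on the tolerant arrays against 10.21 and 8.52 on the syngeneic arrays. All tolerant values were above both syngeneic values, but only tolerant 2 exceeded background. The fitted difference of 1.31 (SE 0.60, adjusted p = 0.907) is thus a difference near background and no fold is given; it was 0.47 without syngeneic 2. Fosl1 (Fra-1), a late member of the family, was at background on all arrays.

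The scatter of Jun and Junb was at the upper end of the array. The pooled SD within groups was 2.82 for Jun and 2.14 for Junb, at the 99.9th and 99.5th percentile of all tested probes. Cebpa (1.90), Nr4a1 (1.62), Egr1 (1.55) and Klf6 (1.48) followed, all between the 95.8th and the 98.9th percentile. For some of these the spread came mainly from the syngeneic pair. Over the 3 tolerant arrays alone the SD was 2.29 for Jun (99.8th percentile) and 1.64 for Egr1 (98.6th), but 0.96 for Cebpa (82.5th), 0.92 for Klf6 (80.6th), 0.65 for Junb (64.1st) and 0.52 for Nr4a1 (54.1st). At the other end Creb3l1, Creb3l3 and Klf10 had SDs of 0.23, near the 10th percentile. Over the 34 members the median was 0.78, against 0.61 over all tested probes; over the tolerant arrays alone these were 0.52 and 0.48.

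**Figure D4:**
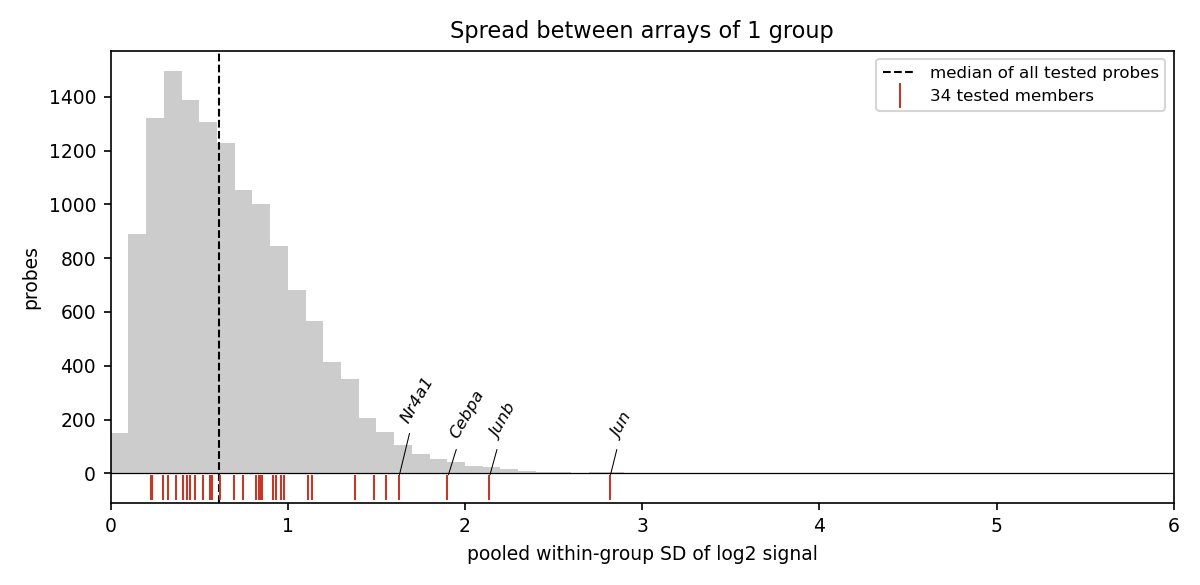
Distribution of the pooled within-group SD of log2 signal over the 13428 tested probes (grey bars, with the median of 0.61 as a dashed line) and the values of the 34 tested members (red ticks below). Most members lie in the body of the distribution, and Nr4a1, Cebpa, Junb and Jun lie in its upper tail.

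Genes of several families were high or low on the same arrays. The range over the 5 arrays exceeded 3 for 7 of 34 members (20.6%), against 9.73% of all tested probes: Jun, Junb, Nr4a1, Ier3, Cebpa, Klf6 and Egr1. Without syngeneic 2 it did so for 3 of 34 (Jun, Ier3 and Egr1; 8.82%), against 3.6% of probes. Of the 7, Jun, Junb, Egr1 and Klf6 had tolerant 1 and syngeneic 1 as their 2 highest arrays. So did Atf4, Atf6b, Gadd45b and Klf9, which makes 8 of 34 (23.5%), against 7.79% of all probes. Over the 4 arrays without syngeneic 2 the count was 13 of 34 (38.2%), against 15.5% of probes. Within the tolerant group alone 21 of 34 members were highest on tolerant 1, against 35.4% of probes. Tolerant 1 had the lowest and syngeneic 1 the highest median raw signal, and the part of signal level in this pattern was not tested. The lowest array was syngeneic 2 for 13 of 34 members, against 25.4% of probes, and 19 of 34 were higher on syngeneic 1 than on syngeneic 2, against 45% of probes. These patterns were noticed in the data and are given as a description. Since the members of a family can share inducers, the genes are not independent replicates.

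**Figure D5:**
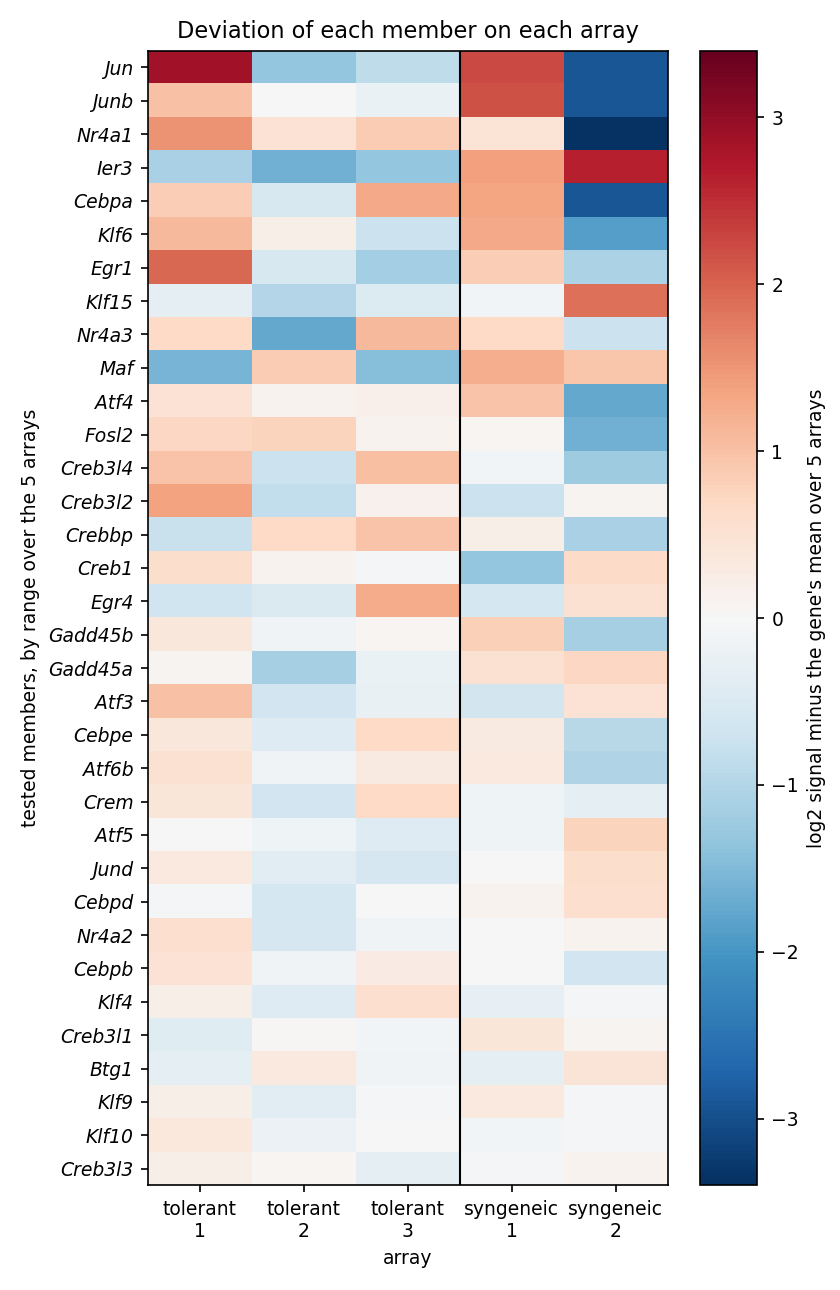
Log2 signal of each of the 34 tested members on each array minus that gene's mean over the 5 arrays, with genes in rows from the widest range (Jun, 5.77) to the narrowest (Creb3l3, 0.51), and red for higher and blue for lower. The upper rows are red on tolerant 1 and syngeneic 1 and blue on syngeneic 2 for Jun, Junb, Klf6 and Egr1. Nr4a1 and Cebpa are blue on syngeneic 2 as well, but Nr4a1 is red on every other array and Cebpa is higher on tolerant 3 than on tolerant 1. Ier3 and Klf15 are red on syngeneic 2.

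Promoter sequence is shown for 4 genes with a range over 3: Junb, Egr1 and Klf6, highest on tolerant 1 and syngeneic 1, and Nr4a1, low on syngeneic 2. The sequences, 250 bases before and 50 after the gene start, are from RefSeq (GRCr8) and were used for 34 of the 41 members; Jun and Ier3 are not among them. Capitals mark matches on either strand to the core of the CRE, TGACG (complement CGTCA), to the AP-1 variant TGACATCA, and to the CArG box. Cebpa, which also had a range over 3 and was low on syngeneic 2, has a sequence too. It held none of these matches and is not printed. In Junb (chr19:40080876-40081175, plus strand) 1 CRE core was found, in Egr1 (chr18:26736828-26737127, plus strand) 2 CRE cores and 2 CArG boxes, in Nr4a1 (chr7:134259888-134260187, plus strand) 4 CRE cores, and in Klf6 (chr17:69458429-69458728, minus strand) 1 CArG box and 1 AP-1 variant.
Junb: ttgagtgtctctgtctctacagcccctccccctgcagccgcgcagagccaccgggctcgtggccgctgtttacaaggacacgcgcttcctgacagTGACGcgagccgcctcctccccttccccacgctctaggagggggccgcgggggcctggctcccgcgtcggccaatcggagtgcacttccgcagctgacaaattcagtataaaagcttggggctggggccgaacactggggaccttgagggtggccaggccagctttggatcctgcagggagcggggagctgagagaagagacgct
Egr1: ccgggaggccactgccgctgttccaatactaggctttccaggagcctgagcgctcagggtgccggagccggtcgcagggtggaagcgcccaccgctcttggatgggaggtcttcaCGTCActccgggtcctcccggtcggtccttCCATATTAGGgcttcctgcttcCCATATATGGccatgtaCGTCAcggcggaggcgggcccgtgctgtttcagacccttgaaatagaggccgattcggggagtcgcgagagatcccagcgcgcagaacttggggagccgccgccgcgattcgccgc
Nr4a1: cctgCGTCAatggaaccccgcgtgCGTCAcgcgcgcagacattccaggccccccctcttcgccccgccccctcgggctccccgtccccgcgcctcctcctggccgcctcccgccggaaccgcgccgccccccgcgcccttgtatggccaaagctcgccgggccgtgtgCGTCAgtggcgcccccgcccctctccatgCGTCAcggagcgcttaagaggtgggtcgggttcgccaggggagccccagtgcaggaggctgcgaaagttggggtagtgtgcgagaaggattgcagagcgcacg
Klf6: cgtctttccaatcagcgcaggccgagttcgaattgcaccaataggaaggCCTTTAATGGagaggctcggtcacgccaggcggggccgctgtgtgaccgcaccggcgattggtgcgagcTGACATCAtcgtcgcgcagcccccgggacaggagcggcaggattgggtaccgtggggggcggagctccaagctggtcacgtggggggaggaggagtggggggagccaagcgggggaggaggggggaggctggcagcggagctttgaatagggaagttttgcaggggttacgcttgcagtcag

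The CRE core occurred in 20 of the 34 member promoters (58.8%), against 21.2% of 33469 rat promoters of the same length. The full CRE, TGACGTCA, which contains the CRE core on both strands, was in 1 member promoter (Jund) and in 1.83% of all. A CArG box was in 3 (Egr1, Egr2 and Klf6), or 8.82%, against 1.64%. The AP-1 site TGANTCA was in 3 (Atf5, Cebpe and Klf9), or 8.82%, against 7.33%, the variant TGACATCA in 1, against 4.33%, and the EGR site GCGTGGGCG in 1 (Jund), against 0.544%. Member promoters had a median of 64.7% G and C, against 51.7% over all promoters, and no match for base composition was made. A match of letters is a description and not a bound site.

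Egr1, a zinc-finger factor that is a classical serum response target, was at 13.59, 11.10 and 10.49 on the tolerant arrays, against 12.49 and 10.57 on the syngeneic arrays. It was above background on tolerant 1 and 2 and on syngeneic 1. Its difference was 0.20 (SE 1.06, adjusted p = 0.986); it was -0.77 without syngeneic 2, -0.74 without tolerant 1 and -0.031 under median scaling, so no direction can be given. Egr4 exceeded background on 1 array, tolerant 3, and Egr2 and Egr3 on none. Of the NR4A receptors, Nr4a1 (Nur77), an orphan nuclear receptor needed in mice for the patrolling class of monocytes, was at 16.10, 15.07 and 15.45 on the tolerant arrays, against 15.04 and 11.20 on the syngeneic arrays. Syngeneic 1 lay just below the lowest tolerant value and syngeneic 2 far below it. The difference of 2.42 (SE 1.10, adjusted p = 0.907) was 0.50 without syngeneic 2 and 4.34 without syngeneic 1. Nr4a3 (NOR1) was above background on tolerant 3 and syngeneic 1 and differed by 0.045 (SE 0.95; -0.67 without syngeneic 2), and Nr4a2 (Nurr1) was at background.

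Of 12 genes of the ATF and CREB group 3 were above background on all arrays. Atf4, the effector of the integrated stress response, was at 15.39, 15.04 and 15.08 in tolerant cells, against 15.87 and 13.16 in syngeneic cells. Its tolerant values were close together and lay between the 2 syngeneic values. The difference was 0.66 (SE 0.80) and -0.70 without syngeneic 2. Atf6b, a membrane-bound factor released under endoplasmic reticulum stress, was at 13.70, 13.07 and 13.48 in tolerant cells, against 13.52 and 12.15 in syngeneic cells, with a difference of 0.58 (SE 0.54; -0.10 without syngeneic 2). Creb3l3, known for its role in liver, was at 11.84, 11.72 and 11.32 in tolerant cells, against 11.58 and 11.76 in syngeneic cells. It had the narrowest range of the tested members, and its difference was -0.045 (95% confidence interval -1.02 to 0.93; 0.045 without syngeneic 2).

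The cAMP-responsive factors Creb1 and Crem themselves gave signals at the edge of detection. Creb1, the founding CREB factor, was at 10.99, 10.50 and 10.36 on tolerant arrays, all at background, and at 9.06 and 11.03 on syngeneic arrays, of which the second was above it. Crem, whose short form ICER feeds back on cAMP signalling, was at 10.64, 9.58 and 10.89 in tolerant cells, against 10.07 and 9.91 in syngeneic cells, with only tolerant 3 above background. Creb3l1, a transducer of endoplasmic reticulum stress, was at 10.68, 11.13 and 10.99 in tolerant cells, against 11.49 and 11.18 in syngeneic cells. It was above background on all arrays but tolerant 1. Its groups did not overlap, and its difference of -0.40 (SE 0.40, adjusted p = 0.909) did not pass. Atf3, a stress-induced repressor of inflammatory genes, was at 10.46, 8.81 and 9.21 in tolerant cells, against 8.82 and 9.95 in syngeneic cells, all at background. Crebbp, Creb3l4 and Atf5 exceeded background on 2, 1 and 1 arrays, with adjusted p = 0.907 each.

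All 4 C/EBP genes, which direct granulocyte and monocyte development, were detected. Cebpb, which drives emergency granulopoiesis and is known as a regulator of MDSCs in mice, was at 17.85, 17.24 and 17.64 in tolerant cells, against 17.36 and 16.71 in syngeneic cells. The groups overlapped, and the difference was 0.54 (95% confidence interval -0.53 to 1.60; 0.21 without syngeneic 2; -0.0094 without normalization between arrays). Cebpd, an acute-phase factor, was at 15.74, 15.21 and 15.79 in tolerant cells, against 15.91 and 16.36 in syngeneic cells. Its groups did not overlap, but the difference of -0.56 (SE 0.43, adjusted p = 0.907; -0.33 without syngeneic 2) did not pass. Cebpe, the factor of late granulocyte maturation, was at 13.55, 12.72 and 13.82 in tolerant cells, against 13.46 and 12.20 in syngeneic cells, a difference of 0.53 (SE 0.58; -0.10 without syngeneic 2).

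Cebpa, which is needed to form granulocyte and monocyte precursors, departed from the others on 1 array. It was at 12.81, 11.43 and 13.27 on tolerant arrays and 13.33 on syngeneic 1, but at 9.09, at background, on syngeneic 2. The difference was 1.29 (SE 1.26, adjusted p = 0.909), -0.83 without syngeneic 2 and 3.41 without syngeneic 1. The monocyte and macrophage markers, named here after their values were seen, were mixed on this array. Itgam and Ccr2 were at background on syngeneic 2, at 9.38 and 8.29, and at 12.87 and 13.78 on syngeneic 1. Cd63 and C1qa were higher on syngeneic 2, at 14.68 and 11.04, than on syngeneic 1, at 12.93 and 9.29, and Cd36 was at 16.44 and 16.43. The part of cell composition in the Cebpa value was not tested. Of the Maf genes, Maf (c-Maf), a large Maf factor of macrophages and some T cells, was at 8.29, 10.75 and 8.43 in tolerant cells, against 11.10 and 10.82 in syngeneic cells. Only syngeneic 1 was above background, so the fitted difference of -1.80 (SE 0.81, adjusted p = 0.907) measures a bound (at least 1.03-fold lower), and no bound is left without syngeneic 1, tolerant 2 or tolerant 3. Mafk, a small Maf partner, was at background.

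Among the 6 Klf genes, Klf4, Klf6, Klf9 and Klf10 were above background on all arrays. Klf4, a factor of monocyte differentiation, was at 17.50, 16.85 and 17.86 in tolerant cells, against 17.02 and 17.23 in syngeneic cells. Klf10 (TIEG1), induced by TGF-beta, was at 16.40, 15.85 and 16.05 in tolerant cells, against 15.94 and 15.97 in syngeneic cells. Klf9, a target of glucocorticoid and thyroid hormone receptors, was at 14.86, 14.27 and 14.59 in tolerant cells, against 15.00 and 14.59 in syngeneic cells. The groups overlapped for all 3. Their differences were 0.28 (95% confidence interval -0.84 to 1.40) for Klf4, 0.15 (-0.83 to 1.12) for Klf10 and -0.22 (-1.24 to 0.79; -0.43 without syngeneic 2) for Klf9, and those of Klf4 and Klf10 were negative under median scaling, at -0.041 and -0.21.

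Klf6, a stress-inducible member of the family, followed Jun instead. It was at 14.56, 13.64 and 12.73 in tolerant cells, against 14.72 and 11.58 in syngeneic cells, with tolerant 1 and syngeneic 1 on top. Its difference was 0.49 (SE 1.01) and -1.08 without syngeneic 2. Klf15, a glucocorticoid target, was at 9.25, 8.55 and 9.10 in tolerant cells, against 9.46 and 11.42 in syngeneic cells, with only syngeneic 2 above background. Its fitted difference was -1.47 (SE 0.66, adjusted p = 0.907) and -0.49 without syngeneic 2, and no fold is given, since its bound is under 1. Klf5 was at background on all arrays.

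Genes around these regulators were read from lists, and none of their tested members passed the threshold in either direction. Of 9 tested bZIP genes outside the symbol pattern 5 were higher and 4 lower, with a median of 0.11 (-0.51 without syngeneic 2 and -0.037 without tolerant 1). The smallest p among them belonged to Ddit3 (CHOP), a partner of C/EBP factors in the stress response, with 12.51, 12.12 and 12.48 in tolerant cells, against 13.05 and 13.36 in syngeneic cells, a difference of -0.83 (SE 0.40, adjusted p = 0.907). Batf3 and Tef followed, both without a tolerant array above background and with no fold. Of 9 MAP kinase and serum response inputs 3 were higher and 6 lower, with a median of -0.091 (0.15 without syngeneic 1 and 0.16 without tolerant 2). Map3k1, a kinase upstream of JNK, differed by 1.67 (SE 0.74), Map2k6 by -0.82 and Map3k8 by 0.49, each with adjusted p = 0.907. Of 9 cAMP and CREB inputs 4 were higher and 5 lower, with a median of -0.12 (0.11 without syngeneic 1 and -0.46 without syngeneic 2), and the calcium-dependent kinase Camk4 had no tolerant array above background and a bound of at least 1.19-fold lower (adjusted p = 0.907). Pde4b differed by 0.97, and Adcy3, with no tolerant array above background, has no fold.

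The widest of these lists held other primary response genes, of which 8 of 27 were higher and 19 lower, with a median of -0.40, against 0.0038 over all probes. Without syngeneic 1 the counts were 15 higher and 12 lower and the median 0.36, so the direction of this list rested on that array; without tolerant 1 and tolerant 2 the median was -0.75 and -0.050. The 3 with the smallest p were Il1b at -2.45 (SE 0.71, adjusted p = 0.766), Ccl4 at -1.35 (SE 0.46, adjusted p = 0.867) and Sgk1 at -1.71 (SE 0.84, adjusted p = 0.907). In this list too the 2 highest arrays were tolerant 1 and syngeneic 1 for 9 of 27 genes, against 7.79% of all probes, and 20 of 27 were highest among the tolerant arrays on tolerant 1, against 35.4%. Named after their values were seen, Cxcl2, a neutrophil chemokine, was at 13.47, 8.29 and 8.29 in tolerant cells, against 13.02 and 8.29 in syngeneic cells. Dusp4, a phosphatase that switches off MAP kinases, was at 12.16, 8.49 and 8.84 in tolerant cells, against 12.22 and 9.23 in syngeneic cells. Both were above background on the same arrays as the high values of Jun and on no other. Dusp1, a related phosphatase, was at 19.17, 16.24 and 16.39 on tolerant arrays, so tolerant 1 was again on top, but its syngeneic values of 18.17 and 18.84 did not follow Jun.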

How the data were processed

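Per the labels' protocols, cRNA labelled with digoxigenin was hybridised to Applied Biosystems rat arrays. The authors' raw table gives a linear intensity for each of 26857 probes, before any scaling between arrays; whether background was subtracted is not given in its header. The authors' deposited series matrix holds log2 values, which differed from quantile-normalised raw intensities by at most 0.000102. Here the intensities were quantile normalized (1 probe with a missing signal left out), floored at the 10th percentile (log2 8.29), put on the log2 scale, filtered on the median of probe means and tested in limma (version 3.58.1, R 4.3.3; 3.19 prior degrees of freedom), with Benjamini-Hochberg adjustment over 13428 probes; every p comes from this fit unless another setting is named beside it. Groups were taken from the titles. Of 26856 probes 6104 have 1 symbol, 70 several and 20682 are not listed; all 41 members matched RefSeq by Entrez identifier.

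The members, lists and the rule for named genes were chosen with earlier results of these data known. The rule names members that reach an unadjusted p of 0.05, that are above background on all arrays of 1 group, or that belong to a set of well-known family members, and the 3 smallest p of each other list. The pattern set for olfactory receptors found 18 probes, because most carry newer symbols, and was widened to 482 after the data were seen; with the 18, 15 members were above background on all arrays, as with the wider set, and 12 rather than 10 on none. Where all arrays of 1 group were at background, a fold is a bound, with each dim array entered at its background level or its own signal, whichever was larger, before averaging. Normalization, floor, filter, replicate number and arrays left out were varied. Leaving out arrays for the lists, directions, ranges and spread was added after the data were seen.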

Additional observations from a re-analysis of the deposited data

How the results depend on the processing

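No alternative moved a member past the threshold apart from Ier3, which was called under median scaling (-3.46, adjusted p = 0.040) and without normalization between arrays (-3.66, adjusted p = 0.0096), so the count of members called was 1 in both and 0 in all others. Its adjusted p was 0.257 in the fit as reported. With the signal filter at the 75th percentile 20 members were tested, and Ier3 was not among them. Over all probes the count of 6 was 53 under median scaling, 81 without normalization, and 0 with normexp background correction, without the signal filter and with the replicate block; with 1 array left out it ranged from 0 to 91, with 91 reached without syngeneic 1. Whether the replicate numbers pair arrays is not known. Same-numbered deviations correlated at -0.10 and 0.015. The deviations of 2 syngeneic arrays mirror each other, so these values can neither show nor exclude pairing. A fit with the replicate numbers as a block called 0 members. Median scaling and no normalization shifted the median of all probes to -0.16 and -0.37. The members' median was -0.18 without normalization and ranged from -0.10 (without syngeneic 2) to 0.50 with 1 array left out. The following signs are for the members named by the rule. Signs turned without normalization for Atf3 (-0.19), Cebpb (-0.0094), Egr1 (-0.24), Gadd45b (-0.18), Klf10 (-0.42) and Klf4 (-0.25), under median scaling for Egr1 (-0.031), Klf10 (-0.21) and Klf4 (-0.041), and with the block for Creb3l3 (0.11). With 1 array left out, signs turned within these ranges: Atf3 -0.45 to 0.67, Atf4 -0.70 to 2.01, Atf6b -0.10 to 1.27, Btg1 -0.48 to 0.25, Cebpa -0.83 to 3.41, Cebpe -0.10 to 1.16, Creb1 -0.41 to 1.55, Creb3l3 -0.15 to 0.11, Egr1 -0.77 to 1.16, Gadd45b -0.70 to 1.24, Jun -2.02 to 3.14, Junb -1.91 to 3.15, Klf10 -0.0071 to 0.27 and Klf6 -1.08 to 2.06. Among the other tested members, Egr4 turned without syngeneic 1 (-0.49) and Nr4a3 without syngeneic 2 (-0.67). The causes were not tested. A syngeneic array left out leaves 1, assumed to vary like the tolerant arrays. Since every member has 1 probe, the mean over probes was not run. Signals near background limit what Creb1, Crem, Fosl2, Maf and Klf15 can show.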
